A study of Mus musculus with 15 samples.

Results

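E1 is a clonal population of 4T1, a mouse mammary carcinoma line, and it was compared here with the uncloned parental 4T1 population from which it was derived. The comparison used the 3 E1 and the 3 parental RNA-seq libraries, 6 of the 15 libraries of the study, and covered all genes: 12712 of 27179 gene identifiers had enough counts to be tested. Parental cells carry the genotype label WT. E1 is labelled as expressing iRFP670, a near-infrared fluorescent protein. The parental cells had been transfected with a plasmid that encodes this protein with a nuclear localization signal, and E1 was grown from a single cell of that transfected population. Clones E2, A and M were made in the same way, with 3 libraries each. Both populations grew in RPMI-1640 medium with fetal bovine serum and gentamicin. Clones were also kept in the antibiotic G418, which was withdrawn for the culture from which RNA was taken, after 72 h and at about 80% confluency. E1 is 1 clone, so descent from a single cell, the plasmid and the earlier G418 cannot be told apart in this comparison. The 3 libraries of each population are labelled biological replicates. Every p-value measures the spread between such replicates only, and that spread was estimated from all 15 libraries, those of E2, A and M included.

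A tumour cell line is a mixture of cells that differ in their heritable state, and a clone fixes the state of 1 of them. 4T1 cells form epithelial sheets but keep mesenchymal genes switched on, and they are known for spreading from the mammary gland of mice to lung, liver and bone. The gene groups described here therefore cover the epithelial and mesenchymal programs, proliferation, lipid and sugar metabolism, recognition by the immune system, the matrix and its proteases, and the signalling pathways of mammary cells. Cells make cholesterol through a chain of enzymes whose genes are switched on together by SREBP2 when sterols in the endoplasmic reticulum run low, and INSIG1 holds SREBP2 back when sterols are plentiful.

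Each library held between 20143111 and 33141271 counts. A single unnamed identifier took 38.3% to 49.3% of the counts in the parental libraries and 39.7% to 44.1% in E1, and the counts outside the 6 largest identifiers came to between 7096885 and 11120148. Epithelial genes used here as carcinoma markers were present in both populations. Epcam, Cdh1, Krt7, Krt8, Krt18, Krt19, Cldn3, Cldn4, Cldn7 and Esrp1 together stood at 384 to 434 CPM in the parental libraries and 662 to 808 CPM in E1. Of 28 leukocyte markers, 17 had no count in any of the 6 libraries, among them Itgam, Adgre1 and Cd3e, and the 28 together stood at 1.61 to 1.84 CPM in the parental libraries and 2.02 to 3.62 CPM in E1. Of 14 fibroblast markers, 5 had no count, among them Dcn and Lum, and the 14 stood together at 6.88 to 9.24 CPM and at 4.87 to 7.70 CPM, most of it Pdgfra. Of 12 endothelial markers, 5 had no count, among them Kdr and Tie1, and the 12 stood together at 5.77 to 6.96 CPM and at 4.16 to 5.36 CPM, most of it Flt1. The samples are bulk RNA, in which fewer cells that make a transcript and less of it per cell cannot be told apart.

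E1 differed from the parental cells in 1922 genes by edgeR's quasi-likelihood test (Benjamini-Hochberg adjusted p under 0.05), 15.1% of the genes tested. Of these, 988 were higher in E1 (7.77% of genes tested) and 934 were lower (7.35%). The median size of the difference among called genes was 0.86 on the log2 scale, and 736 genes (5.79%) were both called and at least 2-fold apart, 402 of them higher and 334 lower. Large differences were more often downward: 69 genes were called at least 8-fold lower and 28 at least 8-fold higher. The 3 E1 libraries lay wholly above or wholly below the 3 parental libraries for 4250 genes (33.4%), which include 1866 of the called genes. Without E1 replicate 2 the number of calls was 1084, and without E1 replicate 3 it was 1173. A call lost under another setting is given with the gene, and the high-share pair stands for parental replicate 1 and E2 replicate 1, the libraries in which the most counted identifier took the highest shares.

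Values are given as CPM, which is the count scaled by library size and TMM factor, in the order of replicates 1, 2 and 3. The leukocyte, fibroblast and endothelial marker sums above are the exception. They were scaled by library size alone, so they are not on the scale of the carcinoma marker sums. Fold changes are log2 values of E1 minus parental from the fit of all 15 libraries. The value after ± is the standard error (SE, n = 3 against 3) of the difference between log2 CPM means. The test does not use this error, so it need not match the p-value beside it. CPM does not account for gene length, so levels are compared only within a gene. Genes were named by a rule, given with the processing. It asked for a call, for at least 5 CPM in the higher population and for no overlap between the populations. The 15 largest increases and decreases were taken among such genes only, so genes at lower levels can have larger fold changes. Where genes named by the rule are said to be separated or not to overlap, that was fixed by the choice. The largest increase among the genes named by the rule was that of Igsf11 (identifier 207683, chromosome 16, 38892476 to 39027159 on build GRCm38, as for all positions given), an immunoglobulin-type adhesion molecule of the cell surface, which stood at 0.0929, 0.383 and 0.567 CPM in parental cells and 13.7, 14.03 and 19.1 CPM in E1. All 3 E1 libraries lay far above all 3 parental ones, and the log2 fold change was 5.18 ± 0.613 (adjusted p = 1.16e-08). Lncenc1, a long noncoding RNA first described in embryonic stem cells (identifier 100039691, chromosome 13, 97434970 to 97497664), stood at 1.95, 3.41 and 2.46 CPM in parental cells and 76.5, 90.1 and 91.8 CPM in E1. Its populations were well separated and tight within themselves, with a log2 fold change of 5.005 ± 0.242 (adjusted p = 1.36e-13). Gatm (identifier 67092, chromosome 2, 122594473 to 122611277), which catalyses the first step of creatine synthesis, stood at 0.929, 1.26 and 0.913 CPM in parental cells and 18.9, 18.7 and 17.8 CPM in E1, a log2 fold change of 4.07 ± 0.145 (adjusted p = 1.55e-12). The E1 libraries differed little from each other in that gene. Thbs1 (identifier 21825, chromosome 2, 118111876 to 118127133) encodes thrombospondin 1, a secreted matrix glycoprotein, and was by far the most counted of the genes with the 15 largest increases. It stood at 72.9, 80.8 and 95.9 CPM in parental cells and 493, 504 and 592 CPM in E1, and its log2 fold change was 2.67 ± 0.142 (adjusted p = 4.23e-09).

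The other genes with the 15 largest increases among those named by the rule were of several kinds. Cldn9, a claudin of the tight junctions between epithelial cells, stood at 0.0929, 0.2296 and 0.189 CPM in parental cells and 4.78, 5.25 and 5.33 CPM in E1, a log2 fold change of 4.41 ± 0.271. Serpinb5, also called maspin and made by mammary epithelium, stood at 0.557, 0.306 and 0.693 CPM in parental cells and 3.99, 5.297 and 6.37 CPM in E1, and its log2 fold change was 3.16 ± 0.361 (adjusted p = 4.67e-05). Prss22, a serine protease of epithelia, stood at 0.836, 3.25 and 2.08 CPM in parental cells and 11.1, 24.2 and 19.01 CPM in E1, without overlap, and its log2 fold change was 3.08 ± 0.643. Fgfbp1 binds and releases fibroblast growth factors, and it stood at 0.279, 0.689 and 1.39 CPM in parental cells and 6.26, 17.1 and 13.2 CPM in E1. E1 replicate 1 was the lowest of its population there, and still above every parental library (log2 fold change 3.81 ± 0.736, adjusted p = 8.85e-05). Nrp1, a co-receptor for semaphorins and VEGF, stood at 7.47, 4.55 and 10.5 CPM in parental cells and 33.3, 50.3 and 56.1 CPM in E1, with a log2 fold change of 2.62 ± 0.415. Havcr2, which encodes the immune receptor TIM-3, stood at 0.232, 1.45 and 0.504 CPM in parental cells and 5.11, 5.81 and 5.68 CPM in E1. Parental replicate 2 was the highest of the parental libraries and remained below all 3 of E1 (log2 fold change 2.801 ± 0.682, adjusted p = 0.00354). Bcl2l15, Mettl7b, Rab32 and Dynap were also among them, with log2 fold changes of 4.17, 4.13, 2.93 and 2.72.

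In the other direction, several genes were close to silent in E1. Mal2 (identifier 105853, chromosome 15, 54571366 to 54602846), a membrane protein of transcytosis in polarized epithelia, stood at 16.4, 23.96 and 24.5 CPM in parental cells and 0, 0.0929 and 0.0631 CPM in E1. E1 replicate 1 had no count of it, and its log2 fold change was -7.54 ± 0.415 (adjusted p = 7.8e-10), the largest decrease among the genes named by the rule. Gpm6b (identifier 14758, chromosome X, 166238943 to 166389033), a membrane glycoprotein best known from neural cells, stood at 5.52, 9.45 and 9.79 CPM in parental cells and 0.121, 0.186 and 0 CPM in E1, and fell by 5.65 ± 0.629 on the log2 scale (adjusted p = 1.33e-05). Fam111a (identifier 107373, chromosome 19, 12573510 to 12589769), a protease that acts at replication forks, stood at 5.57, 6.77 and 5.32 CPM in parental cells and 0, 0.186 and 0 CPM in E1, and only E1 replicate 2 had any count of it. Dzip1 (identifier 66573, chromosome 14, 118875517 to 118925537), a ciliary protein of hedgehog signalling, stood at 7.47, 5.86 and 7.34 CPM in parental cells and 0, 0.139 and 0.126 CPM in E1. Hexa (identifier 15211, chromosome 9, 59539540 to 59565109), the lysosomal hexosaminidase subunit lost in Tay-Sachs disease, stood at 5.94, 4.98 and 4.47 CPM in parental cells and 0.242, 0 and 0 CPM in E1, and 2 of the 3 E1 libraries had none. Fam111a, Dzip1 and Hexa had log2 fold changes of -5.63 ± 0.637, -5.505 ± 0.528 and -5.06 ± 0.733, with adjusted p = 2.44e-06, 5.3e-06 and 9.75e-05.

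Serpine2, a secreted inhibitor of thrombin and urokinase, stood at 8.68, 9.84 and 4.66 CPM in parental cells and 0.303, 0.0929 and 0.126 CPM in E1, and fell by 4.96 ± 0.4903 (adjusted p = 2.29e-08). Rbpms, an RNA-binding splicing regulator, stood at 11, 13.7 and 11.7 CPM in parental cells and 0.424, 0 and 0.473 CPM in E1 and fell by 4.96 ± 0.973. Hhip, which binds hedgehog ligands at the cell surface, stood at 27.6, 49.4 and 37 CPM in parental cells and 3.09, 2.37 and 1.14 CPM in E1. It fell by 4.07 ± 0.481 on the log2 scale (adjusted p = 0.000209) with all E1 libraries under 4 CPM. Tgfbr3, the co-receptor betaglycan, stood at 6.96, 6.97 and 4.16 CPM in parental cells and 0.333, 0.418 and 0.378 CPM in E1 and fell by 3.78 ± 0.258 (adjusted p = 1.41e-07). Vldlr, a lipoprotein receptor that also binds reelin, stood at 37.05, 54.7 and 40.5 CPM in parental cells and 10.2, 6.23 and 4.64 CPM in E1, and fell by 2.64 ± 0.371 (adjusted p = 0.00019). Spn, the sialomucin CD43, stood at 9.66, 10.6 and 11.1 CPM in parental cells and 2.09, 1.16 and 0.946 CPM in E1 and fell by 2.83 ± 0.332. Myo5c, a myosin of secretory granules, stood at 16.7, 12.2 and 12.9 CPM in parental cells and 2.45, 0.6505 and 0.252 CPM in E1 and fell by 3.54 ± 0.875. In each of these genes the E1 and parental libraries did not overlap. Kif21b, a kinesin, stood at 7.94, 8.38 and 8.91 CPM in parental cells and 0.121, 0.0929 and 0.568 CPM in E1 (log2 fold change -4.68 ± 0.625, adjusted p = 0.0193), and its call was lost without E1 replicate 1 or 2, with DESeq2 and without the high-share pair (adjusted p = 0.0516 to 0.0846).

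**Figure D1:**
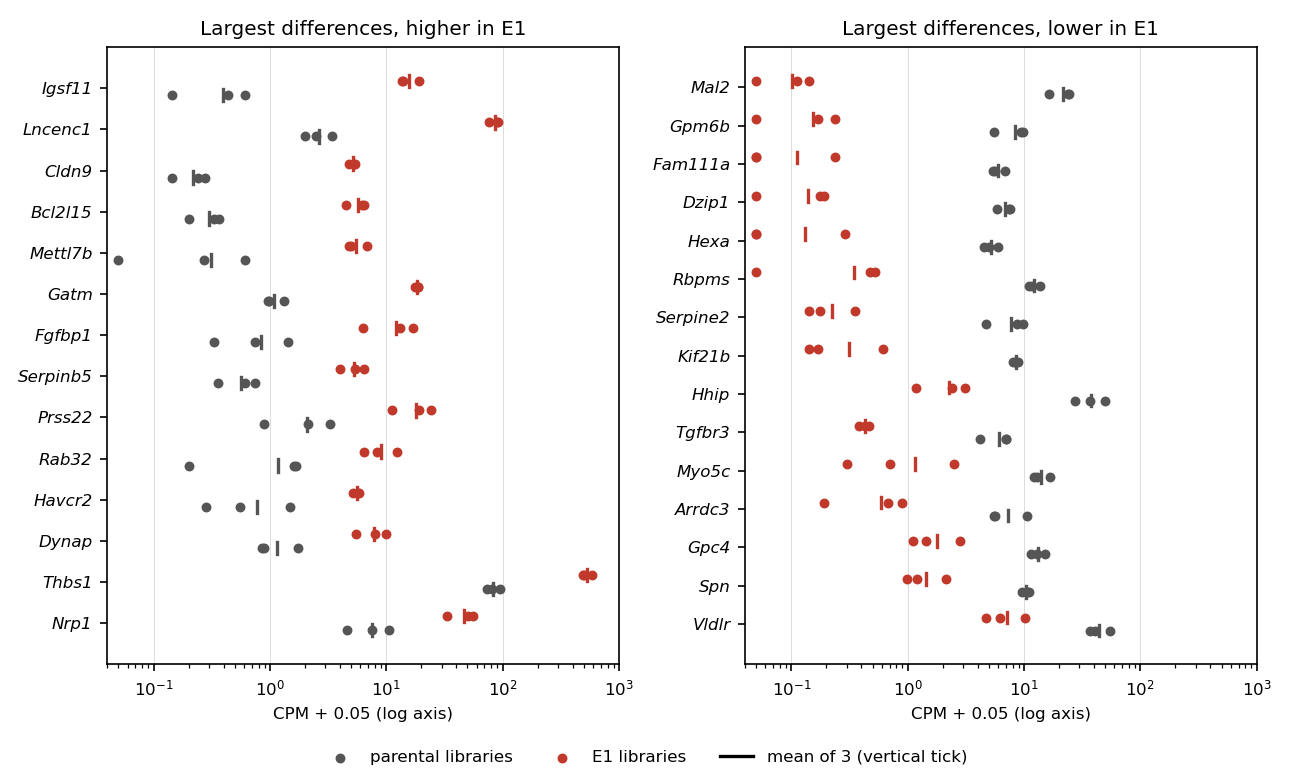
CPM plus 0.05 on a log axis for the genes reported from the 15 largest increases (left) and the 15 largest decreases (right) in E1. Only genes of at least 5 CPM in the higher population were ranked. Each point is 1 library, vertical ticks are means of 3, and points at the far left edge had no count. By the rule that chose these genes, the 3 E1 libraries and the 3 parental libraries do not overlap in any row. Rows run from Igsf11 (log2 fold change 5.18) and Mal2 (-7.54) at the top to Nrp1 (2.62) and Vldlr (-2.64) at the bottom.

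Further genes with a mean above 100 CPM in the higher population were called. Hspa5, the main chaperone of the endoplasmic reticulum, stood at 1087, 923 and 943 CPM in parental cells and 509, 418 and 431 CPM in E1, and fell by 1.12 ± 0.116 (adjusted p = 5.3e-06). Spp1, which encodes the secreted phosphoprotein osteopontin, stood at 96.01, 152 and 99.8 CPM in parental cells and 38.4, 39.2 and 32.1 CPM in E1 and fell by 1.66 ± 0.231 (adjusted p = 3.85e-05). Fn1, fibronectin, stood at 733, 358 and 504 CPM in parental cells and 293, 226 and 256 CPM in E1 and fell by 1.04 ± 0.318 (adjusted p = 0.00322). Parental replicate 1 was the highest library and parental replicate 2 the lowest of its population, still above all of E1. Nt5e, the ectoenzyme CD73 that makes extracellular adenosine, stood at 96.5, 93.8 and 121 CPM in parental cells and 41.1, 38.3 and 46.2 CPM in E1 and fell by 1.31 ± 0.142. Erlin1 (part of a complex that clears proteins from the endoplasmic reticulum), Taf1d, Tpt1 and Sf3b3 fell, with log2 fold changes of -1.51 ± 0.219, -1.30 ± 0.179, -1.26 ± 0.0968 and -1.09 ± 0.236. Rises of this kind were seen in Smurf1, a ubiquitin ligase for SMAD proteins, at 47.6, 35.1 and 34.3 CPM in parental cells and 99.8, 113 and 89.3 CPM in E1 (log2 fold change 1.37 ± 0.181, adjusted p = 4.58e-06). Crybg1 (1.30 ± 0.0824) and Cav2, a caveolin (1.24 ± 0.384), also rose. Ncapg, a condensin subunit, had a log2 fold change of 1.24 ± 0.335, with a call lost without the high-share pair (adjusted p = 0.0686). Tfrc, the transferrin receptor through which cells take up iron, stood at 153, 179 and 127 CPM in parental cells and 234, 427 and 355 CPM in E1, a log2 fold change of 1.14 ± 0.294 (adjusted p = 0.0353). E1 replicate 1 was the lowest E1 library, and the call of Tfrc was lost without any 1 parental library, without E1 replicate 2 or 3 and without the high-share pair (adjusted p = 0.0584 to 0.128).

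Genes were then read in 49 lists of pathways and cell programs, each described by how many of its tested members were called in each direction, beside the 7.77% and 7.35% of all genes tested called higher and lower. The median log2 fold change over all genes tested was -0.01. The lists with the largest shares of higher calls were the carcinoma markers, cholesterol synthesis and keratins, and those with the largest shares of lower calls, among lists with at least 8 tested members, were ribosomal proteins, class I antigen presentation and the chaperones of the endoplasmic reticulum. The carcinoma markers share members with the epithelial and keratin lists, so these are not separate results.

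**Figure D2:**
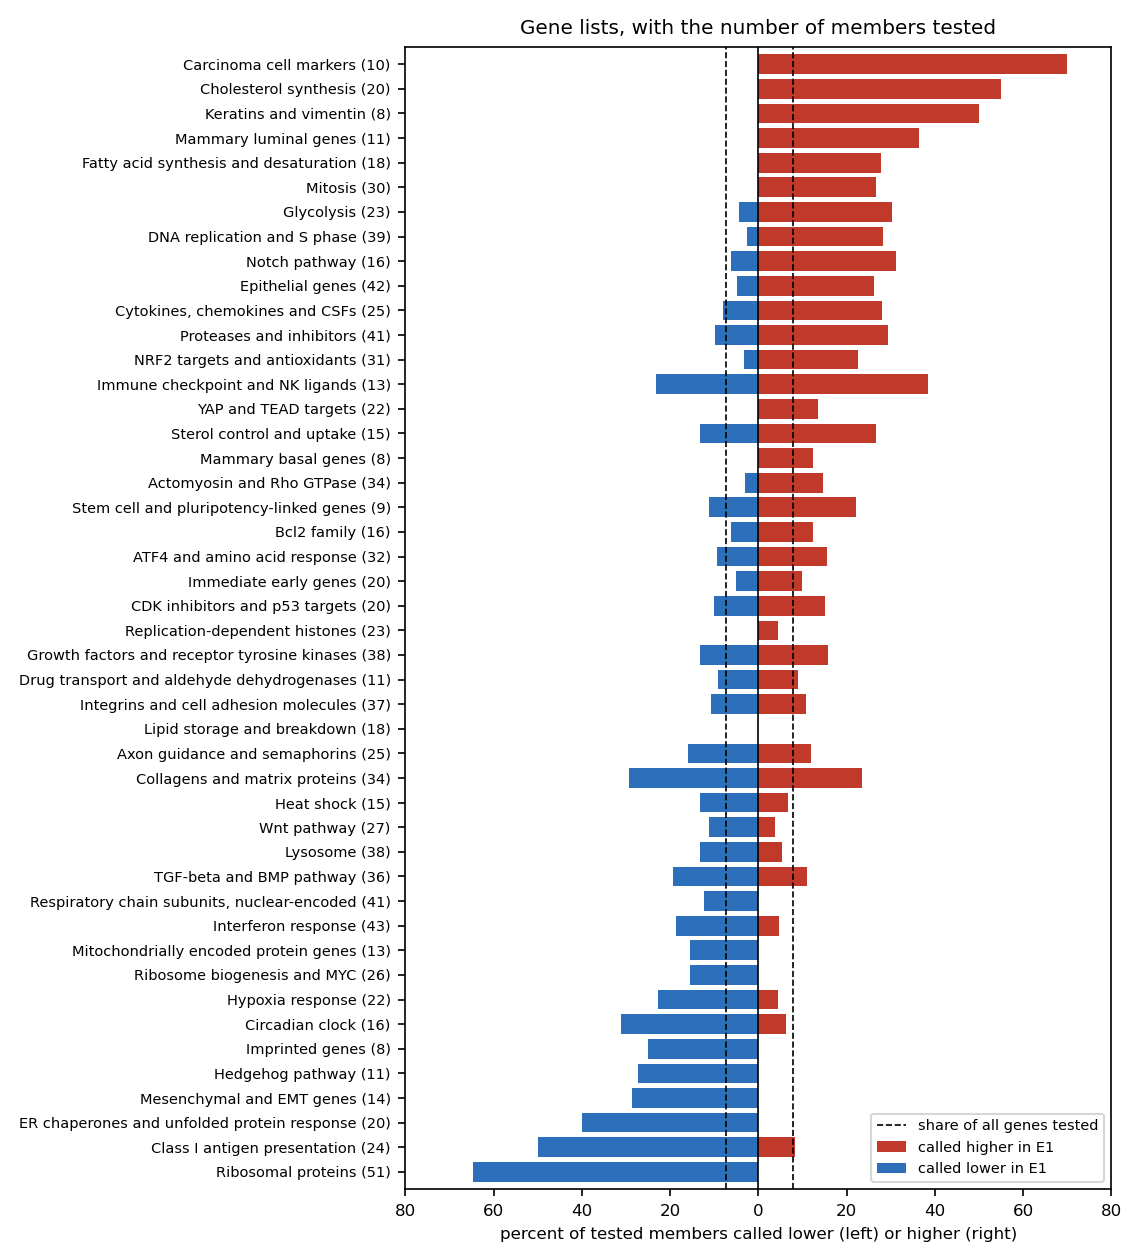
Percent of the tested members of each gene list called higher (red, right) or lower (blue, left) in E1, with the number tested in brackets, for lists with at least 8 tested members. Dashed lines mark the shares over all genes tested, 7.77% higher and 7.35% lower. The cholesterol synthesis bar reaches 55.0% to the right, and the ribosomal protein bar 64.7% to the left.

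Cholesterol synthesis genes were called higher in E1 in 11 of 20 cases and lower in 0, all 20 had a positive log2 fold change, and the median was 1.02. Cyp51, which demethylates lanosterol, stood at 12.1, 13.6 and 13.04 CPM in parental cells and 31.7, 57.8 and 57.6 CPM in E1 (log2 fold change 1.92 ± 0.292, adjusted p = 0.000159). Mvk, mevalonate kinase, stood at 3.203, 3.52 and 4.16 CPM in parental cells and 7.899, 8.78 and 7.91 CPM in E1 (1.16 ± 0.119, adjusted p = 0.00382). In both genes every E1 library exceeded every parental library. Hsd17b7 had a log2 fold change of 1.36 ± 0.329. Fdps, which makes farnesyl diphosphate, had one of 1.73 ± 0.318 (adjusted p = 0.0148), and its call was lost without any 1 parental library, without E1 replicate 2 and without the high-share pair (adjusted p = 0.052 to 0.0913). Acat2 (log2 fold change 1.73), Nsdhl (1.34), Idi1 (1.27), Lss (1.18) and Ebp (0.92) were also called, and the calls of Acat2, Nsdhl, Idi1, Lss and Ebp were each lost in at least 1 setting among without any 1 parental library, without E1 replicate 2 or 3, without the high-share pair, with no filter and in a fit of the 6 libraries alone (adjusted p = 0.051 to 0.234). Not every step was called: Hmgcs1 stood at 29.6, 37.1 and 29.8 CPM in parental cells and 29.1, 40.6 and 40.7 CPM in E1 (log2 fold change 0.19 ± 0.194, adjusted p = 0.517). Sqle, squalene epoxidase, stood at 27.5, 32.7 and 28.2 CPM in parental cells and 31.8, 48.8 and 45.9 CPM in E1 (adjusted p = 0.0745). Within E1 the replicates were uneven. Replicate 1 was the lowest E1 library for 20 of the 20 genes, and the median difference from the parental mean, on the log2(CPM + 1) scale, was -0.09, 0.13 and 0.01 in the parental libraries and 0.43, 0.96 and 0.94 in E1. The number of higher calls fell from 11 to 5 without E1 replicate 2 and 6 without parental replicate 1 or 2, without E1 replicate 3 and without the high-share pair.

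**Figure D3:**
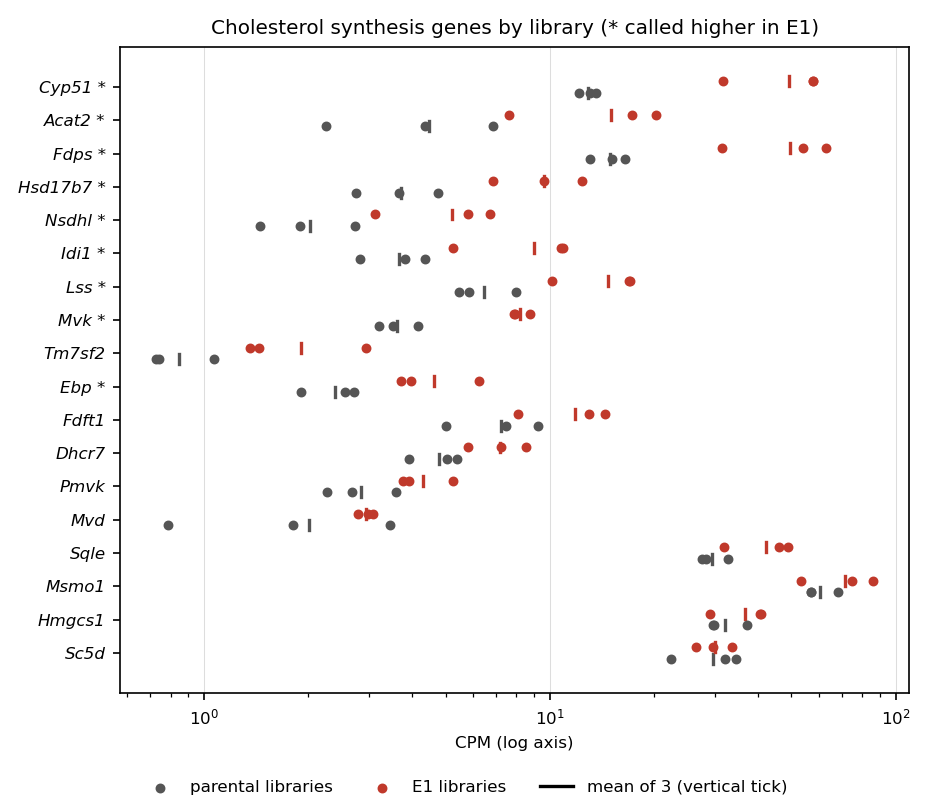
CPM on a log axis of cholesterol synthesis genes, ordered by log2 fold change from Cyp51 (1.92) to Sc5d (0.01). Points are libraries, ticks are means of 3, and asterisks mark genes called higher in E1. The lowest red point of every row is E1 replicate 1.

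The genes that control sterol levels moved both ways: of 15 tested, 4 were called higher and 2 lower, with a median of 0.03. Insig1, the sterol-sensing brake on SREBP2, stood at 6.41, 13.2 and 7.27 CPM in parental cells and 32.1, 69.3 and 46.98 CPM in E1, a log2 fold change of 2.45 ± 0.452 (adjusted p = 0.00452). Stard4, a carrier that moves cholesterol between membranes, stood at 4.09, 6.47 and 5.32 CPM in parental cells and 11.3, 20.9 and 17.5 CPM in E1 (1.63 ± 0.323, adjusted p = 5.31e-05). Srebf2, the gene of SREBP2, stood at 31.4, 31.8 and 27.3 CPM in parental cells and 41.4, 69.4 and 51.1 CPM in E1 (adjusted p = 0.0319), and its call was lost without any 1 parental library, without E1 replicate 2 or 3, with top-gene share as covariate and without the high-share pair (adjusted p = 0.0631 to 0.153). Abca1 and Abcg1, which pump cholesterol out of cells and are switched on by sterol-sensing LXR receptors, had no count in any E1 library. Abcg1 stood at 1.02, 1.07 and 0.756 CPM in the parental libraries and was at least 27.3-fold lower in E1 (adjusted p = 0.00044), taking 3 counts over the 3 E1 libraries as the floor. Abca1 stood at 0.929, 0.153 and 0.126 CPM in the parental libraries, and its call was lost without parental replicate 1, without E1 replicate 3 and without the high-share pair (adjusted p = 0.0555 to 0.0907). The 4 higher calls of the list became 2 without any 1 parental library, without E1 replicate 2 or 3 and without the high-share pair, and its 2 lower calls 1 without parental replicate 1, with minimum count 30, in a fit of the 6 libraries alone and without the high-share pair. Fatty acid synthesis and desaturation genes gave 5 higher calls of 18 and 0 lower, with a median of 0.38. Fads2, a desaturase of polyunsaturated fatty acids, was the largest at 5.94, 3.33 and 7.4 CPM in parental cells and 11.98, 20.3 and 25.2 CPM in E1 (1.77 ± 0.464, adjusted p = 0.0127), with a call lost without parental replicate 1 or 2 and without the high-share pair (adjusted p = 0.0567 to 0.0787). The 5 calls became 0 without parental replicate 1, 1 without E1 replicate 2 or 3, 2 without parental replicate 3 and without the high-share pair and 3 without parental replicate 2, and 1 member was called lower without the high-share pair. Of 18 genes of lipid storage and breakdown, 0 were called by edgeR (4 at an unadjusted p under 0.05), and 1 was called lower with DESeq2, without parental replicate 1 or without the high-share pair.

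The promoters of sterol genes are shown because 15 of the 35 tested genes of the synthesis and control lists were called higher in E1, against 2 called lower. The 250 bases before the RefSeq start of each gene (build GRCm38.p6) were searched on both strands for TCACNCCAC, a form of the sterol element that SREBP proteins bind, for CCAAT, the box bound by NF-Y, and for GGGCGG, the GC box bound by SP1. Windows were found for 26 of the 35 and for 10 of the 15 called higher. Some genes had more than 1 window, and a gene was counted where any of its windows held the letters. The 10 called higher had 1 window each. Dhcr7, Insig2, Srebf1, Pmvk, Scap and Nr1h3, not called, had several, so the gene shares of these groups are not on equal terms. The sterol element letters were in 0 of these 10, in 1.19% of all tested genes with a window and in 1.05% of all 32851 windows. Their absence says only that these letters are not in these windows. CCAAT was in 9 of the 10 genes called higher (90.0%), in 12 of the 15 sterol genes that were not called (80.0%), in 41.0% of all tested genes with a window and in 33.8% of all windows. The GC box was in 10 of 10 and 11 of 15, against 64.5% of tested genes and 32.7% of all windows. The windows of Insig1 (chr5:28071162-28071411, plus strand), Cyp51 (chr5:4104698-4104947, minus strand) and Mvk (chr5:114444019-114444268, plus strand), called higher, and of Hmgcs1 (chr13:119690101-119690350, plus strand), the 1 sterol gene with the element and a gene that was not called, read as follows, 5′ to 3′. Capitals mark CCAAT, written ATTGG where it lies on the other strand, and in Hmgcs1 also the sterol element TCACCCCAC, which begins 137 bases before the start.
Insig1: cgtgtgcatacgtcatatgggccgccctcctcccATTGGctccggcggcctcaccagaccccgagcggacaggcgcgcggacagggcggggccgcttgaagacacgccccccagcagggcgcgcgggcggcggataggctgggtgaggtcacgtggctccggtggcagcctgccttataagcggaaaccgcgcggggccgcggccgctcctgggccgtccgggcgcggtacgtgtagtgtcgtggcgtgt
Cyp51: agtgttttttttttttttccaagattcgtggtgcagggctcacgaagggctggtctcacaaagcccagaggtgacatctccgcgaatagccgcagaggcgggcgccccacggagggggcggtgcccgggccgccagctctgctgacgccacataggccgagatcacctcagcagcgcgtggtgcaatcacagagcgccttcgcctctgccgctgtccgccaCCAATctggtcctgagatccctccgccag
Mvk: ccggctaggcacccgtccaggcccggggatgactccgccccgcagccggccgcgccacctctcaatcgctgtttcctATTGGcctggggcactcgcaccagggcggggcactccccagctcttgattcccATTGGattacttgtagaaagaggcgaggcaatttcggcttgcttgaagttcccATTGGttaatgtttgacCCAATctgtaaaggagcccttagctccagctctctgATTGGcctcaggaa
Hmgcs1: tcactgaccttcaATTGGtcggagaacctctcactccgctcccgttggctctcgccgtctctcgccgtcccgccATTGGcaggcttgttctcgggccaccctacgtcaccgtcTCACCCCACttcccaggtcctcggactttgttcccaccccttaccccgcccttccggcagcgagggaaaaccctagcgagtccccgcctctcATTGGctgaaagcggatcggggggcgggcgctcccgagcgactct

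Epithelial genes were more often higher than lower in E1, with 11 of 42 called higher, 2 lower and a median of 0.39. Epcam, the epithelial cell adhesion molecule, stood at 17.04, 17.4 and 19.3 CPM in parental cells and 47.03, 44.6 and 45.4 CPM in E1, a log2 fold change of 1.35 ± 0.06002 (adjusted p = 7.84e-06). Esrp1, which directs epithelial splicing, stood at 26.6, 28.6 and 29.9 CPM in parental cells and 75.7, 72.5 and 78.1 CPM in E1 (1.41 ± 0.0586, adjusted p = 1.86e-07). The claudin gene Cldn3 stood at 6.45, 6.01 and 4.09 CPM in parental cells and 16.1, 23.05 and 23.8 CPM in E1 (1.92 ± 0.271, adjusted p = 4.06e-06). Cldn4 stood at 72.5, 79.4 and 88.9 CPM in parental cells and 186, 220.3 and 201 CPM in E1 (1.33 ± 0.111, adjusted p = 2.36e-05). In each of these genes the libraries were separated by population. Cldn12, Pkp3, Ppl, Dsp, Patj and Grhl2 also rose, with log2 fold changes of 1.03, 1.11, 1.26, 0.65, 0.61 and 0.49, and the calls of Ppl and Grhl2 were each lost in at least 1 setting among without any 1 parental library, without any 1 E1 library, without the high-share pair, with no filter and in a fit of the 6 libraries alone (adjusted p = 0.0507 to 0.178). The lower calls were Mal2, given above, and Pard3, a polarity protein, which stood at 67.4, 57.6 and 63.7 CPM in parental cells and 37.4, 39.7 and 35.3 CPM in E1 and fell by 0.75 ± 0.0816 (adjusted p = 0.000669). E-cadherin (Cdh1) was not called. It stood at 77.8, 53.6 and 73.2 CPM in parental cells and 62.9, 58.6 and 60.3 CPM in E1, with overlapping libraries (log2 fold change -0.17 ± 0.169, adjusted p = 0.616). Of 8 keratins and intermediate filament genes tested, 4 were called higher, led by Krt80 at 3.95, 1.301 and 5.35 CPM in parental cells and 14.2, 13.3 and 13.4 CPM in E1 (1.92 ± 0.603, adjusted p = 0.000146). Krt7 followed at 40.5, 26.6 and 31.6 CPM in parental cells and 81.7, 79.8 and 94.3 CPM in E1 (1.37 ± 0.192, adjusted p = 8.92e-06). For the other 2, the calls of Krt8 and Krt19 were each lost in at least 1 setting among without any 1 parental library, without any 1 E1 library and without the high-share pair (adjusted p = 0.0518 to 0.167). The 4 higher calls became 2 without parental replicate 1, without E1 replicate 2 and without the high-share pair.

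Mesenchymal genes gave 4 lower calls and 0 higher of 14, with a median of -0.12. Zeb2, a repressor of epithelial genes, stood at 49.4, 58.4 and 63.7 CPM in parental cells and 35.04, 31.8 and 25.7 CPM in E1 and fell by 0.89 ± 0.1697 (adjusted p = 0.00294). Sparc, a secreted matrix protein, stood at 12.4, 16.5 and 19.9 CPM in parental cells and 4.36, 7.29 and 8.77 CPM in E1 and fell by 1.25 ± 0.357 (adjusted p = 0.00743). The other lower calls were Fn1, given above, and Foxc2, at 3.81, 1.15 and 0.8502 CPM in parental cells and 0.303, 0.836 and 0.536 CPM in E1. Parental replicate 1 was far above the other libraries in Foxc2, and the call was lost without parental replicate 1, without E1 replicate 1 or 3, in a fit of the 6 libraries alone, with the replicate block, with top-gene share as covariate and without the high-share pair (adjusted p = 0.0515 to 0.408). Vim, the intermediate filament of mesenchymal cells, was not called (191, 272 and 246 CPM in parental cells and 174, 235 and 224 CPM in E1, adjusted p = 0.756), nor was Twist1 (6.87, 6.31 and 10.05 CPM in parental cells and 6.69, 6.69 and 8.39 CPM in E1, adjusted p = 0.843). With the replicate block or with top-gene share as covariate, 2 mesenchymal genes were called higher, and 1 with no filter or with DESeq2. Of 11 luminal mammary genes, 4 were called higher and 0 lower. Foxa1, a pioneer factor of luminal cells, stood at 0.186, 0 and 0.441 CPM in parental cells and 2.69, 4.83 and 4.38 CPM in E1 (3.83 ± 0.883, adjusted p = 0.000575). Sox9, a factor of luminal progenitors, stood at 33.8, 65.1 and 43.9 CPM in parental cells and 103, 123 and 83.1 CPM in E1 (1.11 ± 0.3201, adjusted p = 0.0014). Luminal calls became 2 without parental replicate 1, without E1 replicate 2 and without the high-share pair, and 1 gene was called lower without E1 replicate 2. Of 8 basal genes 1, Procr, was called, with 2.32, 2.45 and 2.74 CPM in parental cells and 5.99, 4.04 and 5.87 CPM in E1 and a call lost without any 1 parental library, without E1 replicate 1 or 3 and without the high-share pair (adjusted p = 0.0571 to 0.094).

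Mitosis genes had positive log2 fold changes in 30 of 30 tested, with a median of 0.75, but only 8 were called. Bub1, a kinase of the spindle checkpoint, stood at 17.7, 26.98 and 34.3 CPM in parental cells and 71.4, 73.9 and 65.97 CPM in E1 (1.42 ± 0.283, adjusted p = 0.00258). Cdk1, the kinase that drives entry into mitosis, stood at 22.5, 25.1 and 30.1 CPM in parental cells and 40.3, 45.1 and 46.2 CPM in E1 (0.76 ± 0.137, adjusted p = 0.00335). All E1 libraries exceeded all parental ones in both genes. Mki67, the proliferation antigen, stood at 75.3, 71.2 and 119 CPM in parental cells and 178, 184 and 196 CPM in E1, without overlap, and was not called (1.07 ± 0.237, adjusted p = 0.196). The count of calls depended on the fit: the 8 became 2 without parental replicate 1 and without the high-share pair, 3 without E1 replicate 2 or 3, 4 without parental replicate 2, 21 in a fit of the 6 libraries alone and 23 with no filter. Here too E1 replicate 1 was the lowest E1 library, in 28 of 30 genes, and the median difference from the parental mean was -0.29, -0.03 and 0.34 in the parental libraries and 0.45, 0.84 and 0.84 in E1. Genes of DNA replication and S phase gave 11 higher calls and 1 lower of 39, with a median of 0.41. Pold1, the catalytic subunit of DNA polymerase delta, stood at 9.98, 9.76 and 7.999 CPM in parental cells and 25.97, 24.7 and 25.04 CPM in E1 (1.44 ± 0.103, adjusted p = 6.15e-05). Tk1, thymidine kinase, stood at 5.99, 8.42 and 7.02 CPM in parental cells and 18.6, 21.9 and 17.9 CPM in E1 (1.44 ± 0.167, adjusted p = 0.000359). Rrm2, a subunit of ribonucleotide reductase, stood at 17.9, 13.2 and 16.8 CPM in parental cells and 33.5, 42.7 and 40.5 CPM in E1 (1.28 ± 0.169, adjusted p = 2.53e-05). Populations were separate in all of them. The lower call was Gins3, which was lost without parental replicate 1 or 2 and without E1 replicate 1 or 3 (adjusted p = 0.0513 to 0.0904). Of 20 CDK inhibitors and p53 target genes, 3 were called higher and 2 lower. Plk2 and Plk3, polo-like kinases, had log2 fold changes of 1.06 ± 0.2796 and 1.36 ± 0.417. Trp53inp1 stood at 15, 33.5 and 17.3 CPM in parental cells and 6.69, 9.99 and 9.11 CPM in E1 and fell by 1.35 ± 0.396 (adjusted p = 0.00526). Trp53 itself stood at 29.02, 18.8 and 21.1 CPM in parental cells and 16.5, 12.3 and 14.5 CPM in E1, with a call lost without parental replicate 1 or 3, without E1 replicate 2 or 3 and without the high-share pair (adjusted p = 0.0552 to 0.189). Mdm2, its ubiquitin ligase, had a log2 fold change of 0.59 ± 0.194 and a call lost without parental replicate 2 and without E1 replicate 2 (adjusted p = 0.075 to 0.154). Lower calls of this list became 1 without parental replicate 1 or 3, without E1 replicate 2 or 3 and without the high-share pair. Replication-dependent histone genes, whose near-identical copies make their counts uncertain, had a median of 0.79 over 23 genes but 1 higher call, H4c1, which was lost without parental replicate 2 (adjusted p = 0.0509). Calls in that list ranged from 0 without parental replicate 2 to 10 in a fit of the 6 libraries alone, and 9 were called with no filter. The median difference of the list from the parental mean was 0.14, -0.17 and 0.11 in the parental libraries and 0.18, 0.79 and 0.74 in E1. E1 replicate 1 was the lowest E1 library for 19 of the 23 genes, and its summed level, 280.5 CPM, lay below the 317.6 to 411 CPM of the parental libraries, beside 434 and 436 CPM in the other E1 libraries.

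Class I antigen presentation genes, which load peptides for display to T cells, were called lower in 12 of 24 cases and higher in 2, and the median was -0.58. Nlrc5, the transactivator of class I genes, stood at 16.5, 17.7 and 14.6 CPM in parental cells and 10.05, 7.81 and 7.41 CPM in E1 and fell by 0.94 ± 0.157 (adjusted p = 0.00205). H2-D1, a classical class I heavy chain, stood at 65.04, 48.1 and 44.3 CPM in parental cells and 31.1, 33.5 and 34.1 CPM in E1 and fell by 0.67 ± 0.173 (adjusted p = 0.0057). Class I heavy chain genes are near-identical to one another, so the split of reads between them is uncertain. B2m, the shared light chain, stood at 98.98, 75.9 and 69.1 CPM in parental cells and 57.3, 52.6 and 60.9 CPM in E1 and fell by 0.51 ± 0.167 (adjusted p = 0.0142), and its call was lost without parental replicate 1, without E1 replicate 2 and without the high-share pair (adjusted p = 0.0798 to 0.105). Tap1 and Tap2 encode the peptide transporter. Tap1 stood at 4.74, 2.83 and 4.25 CPM in parental cells and 2.48, 1.25 and 1.01 CPM in E1 (log2 fold change -1.27 ± 0.435). Its call was lost without parental replicate 1 or 3, without E1 replicate 2 or 3 and without the high-share pair (adjusted p = 0.0697 to 0.125). Tap2 stood at 12.2, 6.62 and 5.89 CPM in parental cells and 2.69, 2.602 and 4.38 CPM in E1 (log2 fold change -1.33 ± 0.402). Its call was lost without parental replicate 1 and without the high-share pair (adjusted p = 0.0529 to 0.0651). Tapbp, tapasin, went the other way at 44.9, 51.7 and 50.01 CPM in parental cells and 71.4, 114 and 88.8 CPM in E1 (0.90 ± 0.203, adjusted p = 0.000463). Canx and Calr, general chaperones of the endoplasmic reticulum, were among the 12. Of the 12, 4 lay on chromosomes 8, 9 and 14, described below as low in E1. These chromosomes held 5 of the 24 tested members, and 37.5% of the lower calls over all genes tested. The 12 lower calls became 6 without parental replicate 1, without E1 replicate 2 and without the high-share pair, and the 2 higher calls 1 without any 1 parental library and without E1 replicate 2 or 3. Across the libraries the median difference from the parental mean was 0.03, -0.01 and -0.05 in the parental libraries and -0.49, -0.48 and -0.36 in E1.

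Interferon response genes gave 8 lower and 2 higher calls of 43, with a median of -0.47. Irf1, a factor that transmits interferon signals, stood at 20.9, 13.1 and 17.7 CPM in parental cells and 9.11, 9.48 and 11.1 CPM in E1 (log2 fold change -0.79 ± 0.217), and its call was lost without parental replicate 1 (adjusted p = 0.0532). Irf9, another, stood at 4.09, 7.501 and 4.28 CPM in parental cells and 3.21, 2.56 and 1.92 CPM in E1 (log2 fold change -1.03 ± 0.347), and its call was lost without parental replicate 2 and without E1 replicate 2 or 3 (adjusted p = 0.0834 to 0.217). Dtx3l and Parp14, which act together in this response, had log2 fold changes of -0.72 and -0.69, and the call of Dtx3l was lost without E1 replicate 2 (adjusted p = 0.0556). The lower calls became 4 without E1 replicate 2 and 5 without parental replicate 1 and without E1 replicate 3, and the 2 higher calls 0 without parental replicate 2 and without E1 replicate 2 and 1 without parental replicate 3, without E1 replicate 1 or 3 and in a fit of the 6 libraries alone. Among 13 immune checkpoint and NK ligand genes, 5 were called higher and 3 lower. Igsf11, described above, encodes a ligand of the checkpoint receptor VISTA, and Havcr2 is also in this list. Pvr, the ligand of the receptors TIGIT and CD226, stood at 27.9, 36.4 and 33.5 CPM in parental cells and 66.5, 95.3 and 65.6 CPM in E1 (1.21 ± 0.209, adjusted p = 0.000104). Ulbp1, a ligand of the NK cell receptor NKG2D, stood at 14.9, 17.99 and 18.9 CPM in parental cells and 32.7, 36.8 and 39.5 CPM in E1 (1.07 ± 0.131, adjusted p = 0.000143). Cd274, which encodes PD-L1, stood at 3.25, 5.66 and 3.21 CPM in parental cells and 1.51, 1.12 and 0.788 CPM in E1 and fell by 1.77 ± 0.368 (adjusted p = 0.00938). Its call was lost without parental replicate 2 and without E1 replicate 3 (adjusted p = 0.0595 to 0.0615). Cd47, the signal that holds macrophages off, stood at 82.6, 109 and 105 CPM in parental cells and 69.2, 67.1 and 61.9 CPM in E1 and fell by 0.58 ± 0.135 (adjusted p = 0.00571). The 3 lower calls became 1 without parental replicate 2.

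Of 25 cytokine, chemokine and colony-stimulating factor genes, 7 were called higher and 2 lower. Tslp, an epithelial cytokine, stood at 2.37, 4.25 and 4.25 CPM in parental cells and 9.56, 9.06 and 7.28 CPM in E1 (1.23 ± 0.2999, adjusted p = 0.00213). Cxcl16, a membrane-bound chemokine, stood at 20.4, 19.3 and 25.2 CPM in parental cells and 35.8, 46.7 and 38.4 CPM in E1 (0.89 ± 0.163, adjusted p = 0.000814). Both were separated by population. Ccl2, which draws monocytes, stood at 1.903, 3.904 and 6.42 CPM in parental cells and 0, 0.7899 and 0.284 CPM in E1, and its call was lost without parental replicate 3, without E1 replicate 3 and with DESeq2 (adjusted p = 0.0642 to 0.106). Ccl20, Il1a, Lif, Pgf and Cxcl1 were the other higher calls (log2 fold changes 2.03, 1.76, 0.66, 1.77 and 1.48), and Spp1 the other lower one. Among these, the calls of Ccl20, Il1a, Lif, Pgf and Cxcl1 were each lost in at least 1 setting among without any 1 parental library, without any 1 E1 library, without the high-share pair and in a fit of the 6 libraries alone (adjusted p = 0.051 to 0.131). Csf1, the growth factor of macrophages, was not called at 142, 82.7 and 133 CPM in parental cells and 146, 119 and 120.5 CPM in E1 (adjusted p = 0.753). The 7 higher calls became 4 without parental replicate 2 and without E1 replicate 1, and the 2 lower calls 1 without parental replicate 3, without E1 replicate 3 and with DESeq2.

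Of 51 ribosomal protein genes tested, 33 were called lower in E1 and 0 higher, 1 had a positive log2 fold change, and the median was -0.63. Rpl4 stood at 533, 445 and 502 CPM in parental cells and 236, 208 and 251 CPM in E1 and fell by 1.09 ± 0.1095 (adjusted p = 4.51e-06). Rps24 stood at 148, 178 and 151 CPM in parental cells and 68.3, 81.7 and 87.8 CPM in E1 and fell by 1.01 ± 0.138 (adjusted p = 4.23e-05). Rps16 fell by 1.18 ± 0.209 (adjusted p = 0.000114). Many of these genes have pseudogene copies, which leaves their single values uncertain. The per-library medians were 0.17, 0.00 and -0.14 in the parental libraries and -0.58, -0.61 and -0.57 in E1, so all 3 E1 libraries lay well below the parental ones. The 33 calls became 18 without E1 replicate 2 or 3 and 21 without parental replicate 1. Chromosomes 8, 9 and 14, described below as low in E1, held 8 of the 51 genes, and all 8 were called lower. The other 25 of the 33 lower calls lay elsewhere. Over all genes tested, these chromosomes held 37.5% of the lower calls. Whether the chromosome shift bears on this list was not tested. Ribosome biogenesis genes gave 4 lower calls of 26 and 0 higher, led by Gnl3, the nucleolar GTPase nucleostemin, at 106, 100.1 and 114 CPM in parental cells and 49.99, 55.2 and 59.3 CPM in E1 (-0.96 ± 0.0893, adjusted p = 0.000148). Those 4 became 2 without E1 replicate 2. Nuclear-encoded subunits of the respiratory chain gave 5 lower calls of 41 and 0 higher (median -0.22), which became 2 without E1 replicate 2. Of 13 protein genes of the mitochondrial genome, 2 were called lower. COX1 stood at 1582, 1621 and 1452 CPM in parental cells and 774, 716 and 943 CPM in E1 and fell by 0.94 ± 0.128 (adjusted p = 8.61e-05). CYTB stood at 923, 1100.3 and 919 CPM in parental cells and 637, 550.1 and 795 CPM in E1, with a call lost without parental replicate 2 and without E1 replicate 2 (adjusted p = 0.052 to 0.0816).

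Chaperones of the endoplasmic reticulum and genes of the unfolded protein response gave 8 lower calls of 20 and 0 higher, with a median of -0.47. Beside Hspa5, Manf, a secreted stress protein, stood at 30.1, 22.3 and 19.3 CPM in parental cells and 8.72, 11.4 and 8.26 CPM in E1 and fell by 1.33 ± 0.237 (adjusted p = 4.67e-05). Xbp1, whose spliced form drives the response, stood at 29.2, 37.2 and 34.9 CPM in parental cells and 17.8, 12.4 and 12.3 CPM in E1 and fell by 1.25 ± 0.204 (adjusted p = 0.000155). Dnajc3, a co-chaperone, stood at 46.9, 53.6 and 50.7 CPM in parental cells and 26.4, 23.2 and 24.7 CPM in E1 and fell by 1.02 ± 0.0777 (adjusted p = 4.89e-05). E1 and parental libraries did not overlap in these genes. Ern1, Hyou1, Pdia4 and Sel1l were the remaining calls (log2 fold changes -0.96, -0.804, -0.66 and -0.48), and the calls of Pdia4 and Sel1l were each lost in at least 1 setting among without any 1 parental library, without any 1 E1 library and without the high-share pair (adjusted p = 0.0525 to 0.0925). Genes of ATF4, another arm of stress signalling, and of the amino acid response were mixed, with 5 higher and 3 lower calls of 32. Aldh1l2, a folate enzyme of mitochondria, stood at 26.8, 21.6 and 26.3 CPM in parental cells and 6.29, 2.37 and 3.88 CPM in E1 and fell by 2.55 ± 0.412 (adjusted p = 6.9e-05). Shmt2, another one, stood at 47.4, 36.5 and 31.2 CPM in parental cells and 77.99, 73.6 and 86.2 CPM in E1 and had a log2 fold change of 1.05 ± 0.188 (adjusted p = 0.000247). The 5 higher calls became 1 without E1 replicate 2 and 3 without parental replicate 1 and without E1 replicate 3. Heat shock genes gave 1 higher and 2 lower calls of 15, and 4 lower calls with DESeq2, a minimum count of 30, the replicate block or a fit of the 6 libraries alone. The higher call, Hsf1, was lost without parental replicate 1 or 2, without E1 replicate 1 or 2 and without the high-share pair (adjusted p = 0.0688 to 0.134).

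Glycolysis genes gave 7 higher calls and 1 lower of 23, with a median of 0.13. Pfkl, the liver-type phosphofructokinase, stood at 34.8, 21.1 and 19.6 CPM in parental cells and 53.3, 82.2 and 75.7 CPM in E1 (1.48 ± 0.323, adjusted p = 0.000477). Tpi1, triosephosphate isomerase, stood at 47.1, 43.2 and 47.6 CPM in parental cells and 81.9, 114 and 126 CPM in E1 (1.22 ± 0.194, adjusted p = 4.23e-05). Ldha, which turns pyruvate into lactate, stood at 214, 225 and 241 CPM in parental cells and 338, 522 and 509.8 CPM in E1 (1.01 ± 0.209, adjusted p = 0.000246). Pgk1, a kinase of the same pathway, stood at 126, 135 and 154 CPM in parental cells and 212, 333 and 294 CPM in E1 (1.02 ± 0.213, adjusted p = 0.00075). In these 4 enzymes no E1 library fell within the parental range. The lower call was Eno2, which was lost without parental replicate 2 and without E1 replicate 2 or 3 (adjusted p = 0.0541 to 0.0707). Of 22 hypoxia response genes, 5 were called lower and 1 higher. Car9, a membrane carbonic anhydrase, was the higher one at 1.67, 1.07 and 1.35 CPM in parental cells and 6.45, 7.899 and 6.59 CPM in E1 (2.30 ± 0.199, adjusted p = 2.53e-05). Its relative Car12 stood at 20.98, 14.1 and 18.9 CPM in parental cells and 7.57, 6.41 and 3.75 CPM in E1 and fell by 1.595 ± 0.346 (adjusted p = 0.000251). Lower calls there became 3 without parental replicate 2 and without E1 replicate 2, and the 1 higher call became 2 without parental replicate 2, without E1 replicate 1, with no filter, with DESeq2, in a fit of the 6 libraries alone, with the replicate block and with top-gene share as covariate. NRF2 targets and antioxidant genes gave 7 higher calls and 1 lower of 31, and Ugdh (0.76 ± 0.0583) and Abcc1, an exporter of glutathione conjugates (0.69 ± 0.124), were 2 of them. The 7 became 3 without E1 replicate 2 and 4 without parental replicate 3 and without E1 replicate 3, and the lower call 0 without parental replicate 2 and without E1 replicate 1 or 3 and 2 with top-gene share as covariate. Lysosomal genes gave 5 lower and 2 higher calls of 38. Ctsb, cathepsin B, stood at 90.8, 92.9 and 73.97 CPM in parental cells and 41.9, 43.5 and 46.6 CPM in E1 and fell by 0.96 ± 0.114 (adjusted p = 0.000296), and Asah1, acid ceramidase, fell by 0.82 ± 0.0317 (adjusted p = 0.00113). Of the 5 lower calls, 4 lay on chromosomes 8, 9 and 14. These chromosomes held 7 of the 38 tested members, and 37.5% of the lower calls over all genes tested. The 2 higher calls became 0 without E1 replicate 3 and 1 without any 1 parental library and without E1 replicate 1 or 2.

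Notch pathway genes gave 5 higher calls and 1 lower of 16. The ligand gene Jag1 stood at 57.3, 42.9 and 79.1 CPM in parental cells and 111, 132 and 132 CPM in E1 (1.06 ± 0.267, adjusted p = 0.000103). Dll1, another ligand, stood at 1.76, 3.52 and 3.87 CPM in parental cells and 7.57, 12.3 and 8.89 CPM in E1 (1.61 ± 0.404, adjusted p = 0.000119). Hes1, a direct target of Notch, stood at 2.74, 3.06 and 4.47 CPM in parental cells and 6.93, 9.66 and 8.04 CPM in E1 (1.23 ± 0.251, adjusted p = 0.000669). E1 was above the parental cells in all libraries of these genes. Hey2, another target, had no parental count and stood at 0.545, 1.30 and 0.189 CPM in E1, at least 17.96-fold higher. Its call was lost without E1 replicate 2 (adjusted p = 0.0522). Notch1 itself was not called, at 10.9, 7.96 and 10.9 CPM in parental cells and 13.8, 10.6 and 12.9 CPM in E1 (adjusted p = 0.477). The higher calls became 3 without E1 replicate 2, and the lower call 0 without parental replicate 2 and without E1 replicate 2. Hedgehog pathway genes gave 3 lower calls of 11 and 0 higher: Hhip and Dzip1, described above, and Gas1, at 0.696, 0.306 and 0.504 CPM in parental cells and 0, 0.139 and 0 CPM in E1, whose call was lost without parental replicate 1, without E1 replicate 1 or 3 and without the high-share pair (adjusted p = 0.0505 to 0.111). Hhip lies on chromosome 8 and Dzip1 on chromosome 14, and chromosomes 8, 9 and 14 held 3 of the 11 tested members. Of 27 Wnt pathway genes, 3 were called lower and 1 higher. Wnt7a, the higher one, stood at 13, 10.9 and 16 CPM in parental cells and 45.9, 51.3 and 51.6 CPM in E1 (1.89 ± 0.167, adjusted p = 7.94e-09). Wnt10b, a ligand of early mammary development, stood at 0.929, 1.95 and 2.14 CPM in the parental libraries and had no count in E1, which was at least 48.1-fold lower (adjusted p = 0.00136). Lower Wnt calls became 1 without E1 replicate 2.

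Genes of TGF-beta and BMP signalling gave 7 lower and 4 higher calls of 36, with a median of -0.33. On the receptor and transducer side, Tgfbr3 fell as described, and Smad3, which carries the TGF-beta signal to the nucleus, stood at 71.4, 72.7 and 73.8 CPM in parental cells and 37.7, 37.8 and 38.1 CPM in E1 and fell by 0.94 ± 0.0145 (adjusted p = 1.6e-05). The replicates of Smad3 were almost identical within each population. Ltbp1, which stores the latent ligand in the matrix, stood at 289, 285 and 349 CPM in parental cells and 185, 178 and 182 CPM in E1 and fell by 0.76 ± 0.0962 (adjusted p = 0.000617). Inhba, which encodes the activin A subunit, rose at 3.76, 3.79 and 5.98 CPM in parental cells and 15.3, 19.98 and 16.2 CPM in E1 (1.903 ± 0.248, adjusted p = 8.58e-05). Lower calls became 3 without E1 replicate 2 and 4 without parental replicate 1 or 3 and without the high-share pair, and higher calls 2 without parental replicate 3, without E1 replicate 2 and without the high-share pair. Of 22 YAP and TEAD target genes, 3 were called higher and 0 lower. Ccn2, connective tissue growth factor, stood at 14.1, 16.4 and 23.1 CPM in parental cells and 86.7, 81.2 and 84.6 CPM in E1 (2.23 ± 0.213, adjusted p = 1.6e-05). Ankrd1 stood at 45.5, 28.7 and 48.1 CPM in parental cells and 69.3, 82.3 and 70.6 CPM in E1 (0.86 ± 0.248, adjusted p = 0.00213). The 3 higher calls became 5 in a fit of the 6 libraries alone, with the replicate block and with top-gene share as covariate and 6 with no filter and with DESeq2, and the 0 lower calls became 1 without E1 replicate 1, with RLE size factors, with no filter and with minimum count 30, 2 with DESeq2, with the replicate block and with top-gene share as covariate and 3 without parental replicate 2. Growth factor and receptor tyrosine kinase genes gave 6 higher and 5 lower calls of 38. Met, the receptor of hepatocyte growth factor, stood at 103, 143 and 162 CPM in parental cells and 251, 258 and 302 CPM in E1 (0.99 ± 0.212, adjusted p = 0.000155). Gab1, an adaptor of that receptor, stood at 10.9, 11.02 and 8.91 CPM in parental cells and 3.48, 0.604 and 0.757 CPM in E1 (-2.601 ± 0.762, adjusted p = 0.000334). Fgfr1 was low and uneven in parental cells and nearly absent from E1, at 0.975, 2.22 and 0.252 CPM in parental cells and 0, 0.0929 and 0 CPM in E1. Levels this low limit what can be said of it. The 6 higher calls became 2 without E1 replicate 2 and 3 without E1 replicate 1 or 3.

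Matrix genes changed in both directions, with 8 higher and 10 lower calls of 34. Lama3 and Lamb3, chains of the epithelial laminin 332, rose, with log2 fold changes of 1.505 ± 0.167 (adjusted p = 0.00119) and 1.27 ± 0.161 (adjusted p = 0.000308). Lama3 stood at 7.71, 10.1 and 8.82 CPM in parental cells and 23.03, 29.9 and 23.02 CPM in E1. Col4a1 and Col4a2, the main basement membrane collagen, fell by 0.85 ± 0.141 (adjusted p = 0.000629) and 0.89 ± 0.185 (adjusted p = 0.00184), and Lamc1 by 0.70 ± 0.0971 (adjusted p = 0.00218). Has2, which makes hyaluronan, stood at 7.34, 14.8 and 12.6 CPM in parental cells and 32.9, 53.1 and 38.6 CPM in E1 (1.83 ± 0.366, adjusted p = 7.13e-05). Col12a1, a collagen of fibril surfaces, stood at 3.203, 3.1 and 3.87 CPM in parental cells and 10.7, 9.66 and 8.198 CPM in E1 (1.47 ± 0.149, adjusted p = 7.25e-05). Col5a1 stood at 13.3, 10.6 and 14.9 CPM in parental cells and 4.03, 2.88 and 6.05 CPM in E1 and fell by 1.56 ± 0.337 (adjusted p = 8.68e-05). E1 was separate from the parental cells in each of these genes. Proteases and their inhibitors gave 12 higher and 4 lower calls of 41. Serpinb2, an inhibitor of urokinase, had no count in any parental library and stood at 2.84, 2.93 and 2.49 CPM in E1, at least 72.9-fold higher (adjusted p = 0.000698). Klk10, a kallikrein, stood at 0.975, 1.61 and 0.441 CPM in parental cells and 4.48, 5.901 and 5.68 CPM in E1 (2.34 ± 0.514, adjusted p = 0.000104). Adam19, a membrane protease, stood at 10.6, 12.2 and 14.4 CPM in parental cells and 30.9, 35.6 and 31.9 CPM in E1 (1.39 ± 0.141, adjusted p = 2.54e-06). Plaur, the urokinase receptor, had a log2 fold change of 0.96 ± 0.325 (adjusted p = 0.00255). Of 37 integrin and adhesion genes, 4 were called higher and 4 lower, and of 34 actomyosin genes 5 higher and 1 lower. The higher calls of the former became 2 without E1 replicate 2, and those of the latter 3 without parental replicate 1 and without E1 replicate 3. The lower actomyosin call became 2 without E1 replicate 1, with no filter, with DESeq2, in a fit of the 6 libraries alone, with the replicate block and without the high-share pair.

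Circadian clock genes gave 5 lower calls and 1 higher of 16. Bhlhe40, a repressor of clock and hypoxia genes, stood at 15.9, 7.501 and 15.3 CPM in parental cells and 59.3, 59.8 and 68.4 CPM in E1 (2.27 ± 0.356, adjusted p = 8.57e-07). Per2 fell, at 4.46, 3.33 and 4.38 CPM in parental cells and 1.76, 1.02 and 1.07 CPM in E1 (-1.60 ± 0.272, adjusted p = 0.00871). Those 5 lower calls became 2 without parental replicate 1 and without E1 replicate 2 or 3 and 3 without the high-share pair. Axon guidance genes gave 3 higher and 4 lower calls of 25, immediate early genes 2 and 1 of 20, Bcl2 family genes 2 and 1 of 16, drug transporters and aldehyde dehydrogenases 1 and 1 of 11, and stem cell genes 2 and 1 of 9. Higher calls of immediate early genes became 0 without E1 replicate 2 and 1 without any 1 parental library, without E1 replicate 1 or 3 and without the high-share pair, and their lower call 0 without parental replicate 3 and without E1 replicate 2 or 3. The lower Bcl2 family call became 0 without parental replicate 2 or 3 and without any 1 E1 library and 2 with no filter, in a fit of the 6 libraries alone and without the high-share pair. The higher drug transporter call became 2 without parental replicate 3, with the replicate block and with top-gene share as covariate. The lower stem cell call became 0 in a fit of the 6 libraries alone and 2 without the high-share pair. Imprinted genes gave 0 higher and 2 lower calls of 8, or 1 in a fit of the 6 libraries alone. H19 was 1 of these, at 0.279, 0.383 and 0.315 CPM in the parental libraries with no count in E1, at least 9.36-fold lower (adjusted p = 0.00783). In the fit of the 6 libraries alone H19 was not among the calls. Abcc3, a transporter of organic anions and drug conjugates, stood at 1.49, 2.79 and 1.76 CPM in parental cells and 0.303, 0 and 0 CPM in E1 and fell by 3.56 ± 0.851 (adjusted p = 0.00336).

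Calls in E1 were unevenly spread over the chromosomes. On chromosome 14, 98 of 413 tested genes were called lower (23.7%) and 0 higher, and the median log2 fold change was -0.46. On chromosome 9, 143 of 718 were called lower (19.9%) and 22 higher, with a median of -0.34, and on chromosome 8, 109 of 673 were lower (16.2%) and 22 higher, also with a median of -0.34. These 3 chromosomes held 1804 of the tested genes and 350 of the 934 lower calls (37.5%). Higher calls were most frequent on chromosome 5, with 135 of 789 (17.1%) against 18 lower and a median of 0.22, and on chromosome 10, with 98 of 601 (16.3%) against 13 lower and a median of 0.22. On chromosome 4, 90 of 771 were higher (11.7%) and 25 lower. The pattern was present in each library. After centring each library on its median over all genes, the chromosome 14 median difference from the parental mean, over genes of at least 1 CPM, was -0.45, -0.34 and -0.34 in the E1 libraries and -0.06, 0.04 and 0.03 in the parental ones. The same values were -0.31, -0.30 and -0.30 in E1 for chromosome 9, -0.25, -0.27 and -0.27 for chromosome 8, 0.24, 0.22 and 0.22 for chromosome 5, and 0.20, 0.22 and 0.27 for chromosome 10. The shift ran along the whole of chromosome 14: in all 7 intervals of 20 Mb the median was between -0.61 and -0.38, and none held a higher call, although 2 of the 7 held only 9 and 18 tested genes. On chromosome 9 the medians of such intervals lay between -0.47 and -0.21, on chromosome 8 between -0.41 and -0.18, on chromosome 5 between 0.18 and 0.38, and on chromosome 10 between 0.11 and 0.28. DNA copy number was not measured.

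**Figure D4:**
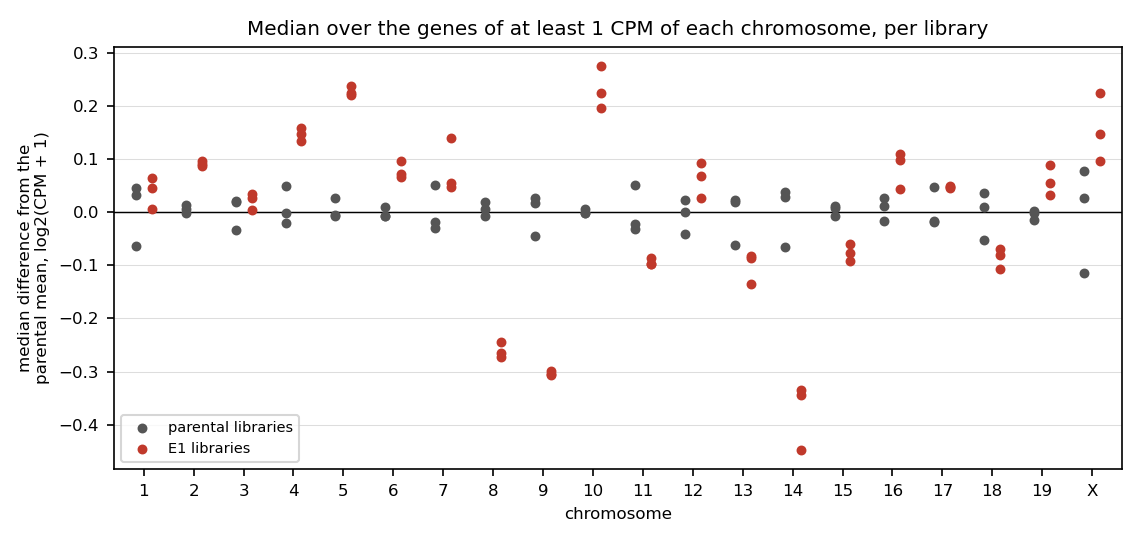
Median over the genes of at least 1 CPM of each chromosome of the difference from the parental mean, on the log2(CPM + 1) scale, for each library after centring on its median over all genes. Gray points are the 3 parental libraries, which lie near 0 by construction, and red points the 3 E1 libraries. Chromosomes 8, 9 and 14 lie between -0.45 and -0.25 in all E1 libraries, and chromosomes 5 and 10 between 0.20 and 0.27.

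Without 1 library the counts on these chromosomes fell along with the total. Lower calls on chromosome 14 were 55 without E1 replicate 2, 57 without parental replicate 3 and 58 without E1 replicate 3. Those on chromosome 9 were 77 without E1 replicate 2, 82 without E1 replicate 3 and 94 without parental replicate 3. Those on chromosome 8 were 53 without E1 replicate 2, 61 without E1 replicate 3 and 69 without parental replicate 3. Higher calls on chromosome 5 were 80 without E1 replicate 2 and 87 without E1 replicate 3, and those on chromosome 10 were 55 without E1 replicate 2 and 63 without E1 replicate 3. Calls against these directions fell too. Higher calls on chromosome 9 were 12 without E1 replicate 2 and 14 without parental replicate 1 and without E1 replicate 3, and those on chromosome 8 were 8 without E1 replicate 2 and 14 without parental replicate 1 or 2 and without E1 replicate 3. Lower calls on chromosome 10 were 7 without E1 replicate 2 and 8 without parental replicate 2 and without E1 replicate 3. The 0 higher calls on chromosome 14 became 1 without parental replicate 3 and 2 with no filter, with the replicate block and with top-gene share as covariate. In windows of 25 neighbouring tested genes the median log2 fold change ran from -0.76 to 1.25, with 90% of 11878 windows between -0.45 and 0.31. The highest windows held the histone gene clusters of chromosome 13, and the next, at 0.73, lay on chromosome 5 from 4803384 to 20704792 (GRCm38), where 9 of 25 genes were called higher and 0 lower. The lowest, at -0.76, lay on chromosome 14 from 115044000 to 122480328, with 8 lower calls and 0 higher. In chromosome medians against the same parental libraries, which all these comparisons share, chromosome 14 stood at -0.75 in E2, -0.30 in A and -0.34 in M, beside -0.46 in E1. Chromosome 9 stood at -0.19 in E2, 0.25 in A and -0.12 in M, beside -0.34 in E1. Chromosome 8 stood at -0.25 in E2, -0.30 in A and -0.38 in M, beside -0.34 in E1. Chromosome 5 stood at 0.18, 0.15 and 0.18 in E2, A and M, and chromosome 10 at 0.23, 0.12 and 0.16, beside 0.22 in E1 on each.

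Set directly against the other clones, E1 differed from E2 in the fewest genes, 30 (0.236% of those tested), 8 higher and 22 lower in E1. Against M, 495 genes (3.89%) differed, 186 higher and 309 lower, and against A 3767 (29.6%), 1862 higher and 1905 lower. Of the 1922 genes called against the parental cells, 17 were also called against E2, 217 against M and 928 against A. The direction was the same in 14, 187 and 796 of them. A call against the parental cells therefore does not by itself tell E1 from the other clones. Of the 8 genes higher in E1 than in E2, 5 lay on chromosome 14: Fermt2, Slc39a14, Esd, Eaf1 and Ipo5, with log2 differences of 0.91, 0.88, 1.00, 0.70 and 0.62. Klf9, Bcl2l15 and Oasl1 were the others (0.89, 1.95 and 1.596). Over all 413 tested genes of chromosome 14 the median of E1 minus E2 was 0.26. Postn, which encodes periostin, was among the genes lower in E1, at 1.21 CPM ± 0.461 (SD, n = 3) in E1 against 11.3 CPM ± 2.41 in E2, a log2 difference of -3.13 (adjusted p = 0.00451). Chst2, a sulfotransferase of glycans, stood at 4.11 CPM ± 0.729 in E1 and 11.7 CPM ± 2.66 in E2 (-1.49, adjusted p = 0.00442), and Marcks, an actin-linked substrate of protein kinase C, at 33.9 CPM ± 5.98 and 81.7 CPM ± 26.2 (-1.27, adjusted p = 0.00520). Chromosome 9 separated E1 from A and M: 285 of its 718 tested genes were lower in E1 than in A and 23 higher (median -0.55), and 51 were lower than in M and 4 higher (median -0.21). On chromosome 15, E1 was higher than M in 62 of 486 genes and lower in 2 (median 0.19), and higher than A in 126 and lower in 51 (median 0.19). On chromosome 6, E1 was lower than M in 34 of 589 genes and higher in 1 (median -0.17), but higher than A in 153 and lower in 54 (median 0.26). On chromosome 7, E1 was lower than M in 33 of 922 genes and higher in 3 (median -0.17).

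A gene was taken to set E1 apart where E1 differed from parental cells, E2, A and M alike, with a call in the same direction and at least a 2-fold difference each time. There were 8 such genes lower in E1 (0.0629% of genes tested) and 0 higher (0%) by edgeR. Gpc4, a glypican that binds growth factors at the cell surface, was much lower in E1: the E1 libraries stood at 2.78, 1.39 and 1.07 CPM, and the other 12 libraries between 8.33 and 25.2 CPM. Its log2 differences were -2.85 from the parental cells, -2.52 from E2, -3.69 from A and -3.14 from M (adjusted p = 3.95e-08, 5.47e-06, 1.70e-10 and 2.66e-08). Arrdc3, an alpha-arrestin that sends surface receptors to degradation, stood at 0.847, 0.139 and 0.631 CPM in E1, 5.62, 10.6 and 5.48 CPM in the parental cells, 1.92 to 3.95 CPM in E2 and 2.25 to 4.44 CPM in M. In A it stood far higher, at 37.4 to 44.3 CPM. Trib2, a pseudokinase that guides proteins to degradation, stood at 1.997, 2.69 and 2.55 CPM in E1, below every other library, against 4.13 to 8.57 CPM in the parental cells and 69.3 to 76.8 CPM in A. Sorcs2, a sorting receptor, stood at 1.54, 1.07 and 1.83 CPM in E1 and between 2.51 and 6.197 CPM in the other 12 libraries. Sema3b, a secreted semaphorin, stood at 0.0605, 0.0929 and 0.126 CPM in E1 and between 0.838 and 2.02 CPM elsewhere. Phactr1 and Serpina3g had no count in any E1 library. Phactr1, a regulator of actin and of protein phosphatase 1, stood at 2.51, 5.05 and 1.61 CPM in the parental cells but only at 0.0980 to 0.194 CPM in M, and parental replicate 2 had no count of Serpina3g. Tmod2, a tropomodulin that caps actin filaments, had counts in E1 replicate 1 only (0.363 CPM). The number of such genes, 8, became 5 without E1 replicate 2 and 3 without E1 replicate 3.

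**Figure D5:**
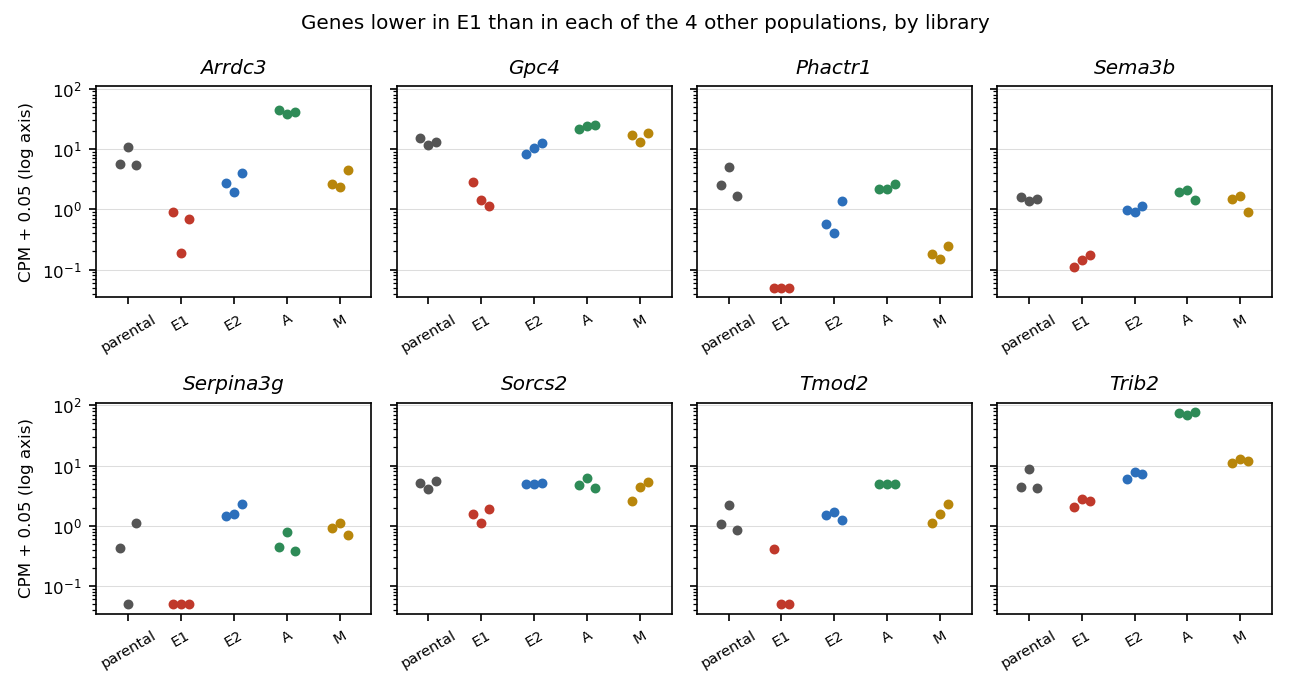
CPM plus 0.05 on a log axis of the 8 genes lower in E1 than in each of the 4 other populations, for all 15 libraries, 3 points per population. Points at the bottom edge had no count. E1 (red) has the lowest mean in every panel, and for Gpc4 its libraries lie at 1.07 to 2.78 CPM against 8.33 to 25.2 CPM in the other 12.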

How the data were processed

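RNA was sequenced from 3 libraries each of parental 4T1 and of clones E1, E2, A and M. The authors deposited raw gene counts per library. Per the submitters' processing notes, HISAT2, featureCounts and DESeq2 were used with GRCm38 (mm10), and neither versions nor the strand setting are given in the sources used here, so overlapping antisense genes cannot be told apart. Identifiers were named from RefSeq (25275) or GENCODE (18), and 1886 stayed unnamed.

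Counts of all 15 libraries were fitted with edgeR 4.0.16 in R 4.3.3 (filterByExpr with a minimum count of 10 and a minimum total of 15, TMM scaling, robust quasi-likelihood test, prior count 2), with population as the only term, and E1 was contrasted with parental. Genes count as called where p, adjusted by Benjamini-Hochberg over all 12712 genes, lay under 0.05. All 15 libraries share 1 estimate of the spread (biological coefficient of variation 0.255). TMM factors were 0.847 to 1.01 in the parental libraries and 0.997 to 1.07 in E1. Between libraries of 1 population, Pearson's r of log2 CPM across genes was 0.956 to 0.967. Standard errors are those of the difference between the log2 CPM means of 3 and 3 libraries. The code was tested on simulated data.

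Named genes had a symbol that is not a predicted model, a call, at least 5 CPM in the higher population and no overlap between populations. The 15 largest changes each way were taken, then the 10 largest each way above 100 CPM, up to 10 each way among genes that set E1 apart, and up to 4 called members each way from each list, with further members where a role was needed. The comparison, its gene lists and its tests were chosen with earlier results of these data known. Deviations from the population mean correlated at 0.0919, 0.0516 and 0.0283 between parental and E1 libraries of the same replicate number. Between those of different numbers they correlated at -0.0656 to 0.0110, all below the same-number values. As none was above 0.1, the numbers were not taken to pair the libraries. The most counted identifier nevertheless took its highest share at replicate 1 in every population. That share was 49.3% for parental cells and 44.1% for E1. An effect shared by libraries of the same number is therefore not excluded, and its size was not tested. The replicate block, which gave 2255 calls, was tried as an alternative. The alternatives tried were RLE size factors, no filter, a minimum count of 30, DESeq2 1.42.0, the 6 libraries alone, the 6 most counted identifiers left out, the replicate block, the top-gene share as a covariate and each parental and E1 library left out. Leaving out parental replicate 1 and E2 replicate 1 together, the 2 libraries with the highest top-gene share, was added after seeing the data. Some genes entered the fits and counts but are not reported here by name.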

Additional observations from a re-analysis of the deposited data

How the results depend on the processing

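The 1922 calls (988 higher, 934 lower, 736 at least 2-fold) stayed within 1.5 times under RLE size factors (1931), no filter (2133), a minimum count of 30 (1937), DESeq2 (2302), a fit of the 6 libraries alone (2013), the 6 most counted identifiers left out (1928), the top-gene share as a covariate (2248) and parental replicate 1 and E2 replicate 1 left out together (1697). With the replicate block there were 2255 calls (1183 higher, 1072 lower), 781 of them at least 2-fold, and 11 genes set apart. Leaving out 1 parental or E1 library gave 1084 to 1630 calls, 585 to 836 higher, 499 to 794 lower, and 537 to 776 at least 2-fold. The lowest counts were those without E1 replicate 2 (1084, 585 and 499), followed by those without E1 replicate 3 (1173, 642 and 531). The 8 genes that set E1 apart became 27 with no filter and 27 with DESeq2, and 3 to 10 when 1 library was left out, with 5 without E1 replicate 2 and 3 without E1 replicate 3. The cause was not tested. Of 330 named genes and called list members followed through up to 15 alternatives, 157 lost their call under at least 1, 173 under none, and 0 changed direction. A setting in which a gene was not tested was not counted as a loss. The genes were followed because they were called, so the lack of reversals was largely fixed by that choice. The level that 3 counts correspond to was 0.139 CPM in parental replicate 1 and in E1 replicate 2 and 0.0908 to 0.115 CPM in the other libraries of the 6, which limits what can be said of genes under about 1 CPM.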

Other observations

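Several smaller groups held changes that the report gives only as counts. Among guidance genes, Sema5a, a membrane semaphorin, stood at 6.96, 8.84 and 8.69 CPM in parental cells and 17.1, 18.8 and 21.5 CPM in E1 (log2 fold change 1.22 ± 0.145, adjusted p = 7.25e-05), and Neo1, the receptor neogenin, stood at 174, 211 and 181 CPM in parental cells and 114, 113 and 114 CPM in E1 and fell by 0.73 ± 0.08497 (adjusted p = 0.000592). The laminin-binding integrin gene Itga7 stood at 1.76, 1.91 and 2.52 CPM in parental cells and 5.66, 7.11 and 5.96 CPM in E1 (1.55 ± 0.18, adjusted p = 0.000609). All 3 were separated by population. Bcl2l1, which encodes the survival protein BCL-XL, stood at 19.7, 14.9 and 17.6 CPM in parental cells and 32.2, 25.9 and 27.6 CPM in E1 (0.71 ± 0.15, adjusted p = 0.00581). Impact, an imprinted gene and an inhibitor of the stress kinase GCN2, stood at 31.2, 47.2 and 35.8 CPM in parental cells and 20.1, 20.9 and 21.6 CPM in E1 and fell by 0.87 ± 0.177 (adjusted p = 0.00101). Col6a1, a chain of collagen VI, stood at 2.6, 2.95 and 2.02 CPM in parental cells and 0, 0.372 and 0.315 CPM in E1 and fell by 3.16 ± 0.874 (adjusted p = 0.00246).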
